A study of Mus musculus with 2 samples.

Results

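The 9 genes examined here carry arginine into the cell and decide what is made from it: the transporter genes Slc7a1 and Slc7a2, the nitric oxide synthase gene Nos2, the arginase genes Arg1 and Arg2, the citrulline recycling genes Ass1 and Asl, the polyamine gene Odc1 and the cofactor gene Gch1. They were taken by symbol from the 30538 genes of the count table, and all 9 were found. They were chosen by a rule that had earlier ratios of these same 2 libraries in view, so their ratios are a description and not a test.

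RNA was sequenced from mouse spleen cells sorted as CD11b+, Ly6G- and low for Ly6C, about 100000 cells per sort, 3 days after intravenous infection with 100000 Listeria monocytogenes. One group was C57BL/6 and the other was Ch25h-/-, which lacks cholesterol 25-hydroxylase, and both groups were infected. Each genotype had 1 library, so nothing below has a replicate check. The age of the mice and the number of mice behind each library are not given in the sources used here. The comparison asks how cells of this sort from infected mice differ when Ch25h is missing.

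Arginine is the shared substrate of competing enzymes in macrophages. Inducible nitric oxide synthase turns it into nitric oxide, which is toxic to many intracellular microbes, and citrulline. Arginase turns it into urea and ornithine, and ornithine feeds polyamine and proline synthesis. Nitric oxide synthesis in activated macrophages depends on arginine from outside the cell, brought in by cationic amino acid transporters, and on the cofactor tetrahydrobiopterin. Citrulline can be recycled to arginine by argininosuccinate synthase and argininosuccinate lyase.

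The C57BL/6 library held 16957371 counts and the Ch25h-/- library 15986392. Ch25h itself had 3 counts in the C57BL/6 library (exact Poisson 95% interval 0.619 to 8.77) and 0 in the Ch25h-/- library (upper limit 3.69), so these counts cannot check the genotype labels. The labels call the cells resident splenic macrophages. All 12 macrophage markers examined were measured in both libraries, but genes of natural killer (NK) cells were far more abundant: the 10 NK markers summed to 11084 and 17881 CPM (counts scaled to library size), against 694.9 and 477.8 CPM for the macrophage markers, in C57BL/6 and Ch25h-/- respectively. Below, paired values are always in that order. Most of the NK sum came from the granule genes Gzmb (4356 and 7429 CPM), Gzma (3518 and 5274 CPM) and Prf1 (1974 and 2897 CPM). The NK marker Ncr1 had 156 and 429 CPM, beside 324 and 239 CPM for Csf1r, the most abundant macrophage marker. Values are for the mixed sort, and fewer cells of a type cannot be told apart from less RNA per cell. CPM carry TMM factors, and genes with a mean of 1 CPM or more count as measured. Ratios put Ch25h-/- over C57BL/6, and their exact 95% intervals hold counting error and nothing else. Calling a gene lower or higher took a difference of 2-fold or more (a log2 ratio of 1 in size) and an interval without 0.

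Slc7a2, Arg1 and Arg2 were called lower in the Ch25h-/- library, and the other 6 members were not called. The call therefore fell on 3 of 9 members, beside 5.77% of 11972 measured genes called lower and 2.07% called higher. The median log2 ratio of the 9 members was -0.62, beside 0.015 over all measured genes. Of the 9 members, 8 had a log2 ratio under 0. That number became 7 when ratios were re-centred on the median of 12 general myeloid genes and 2 when they were re-centred on the median of conventional dendritic cell markers. The latter re-centring ended the calls of Arg1 and Arg2, while Slc7a2 was still called lower, only just past the rule at -1.003 (-1.29 to -0.72). The same re-centring called the other 6 members higher, with 11053 of 11972 measured genes called higher.

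**Figure D1:**
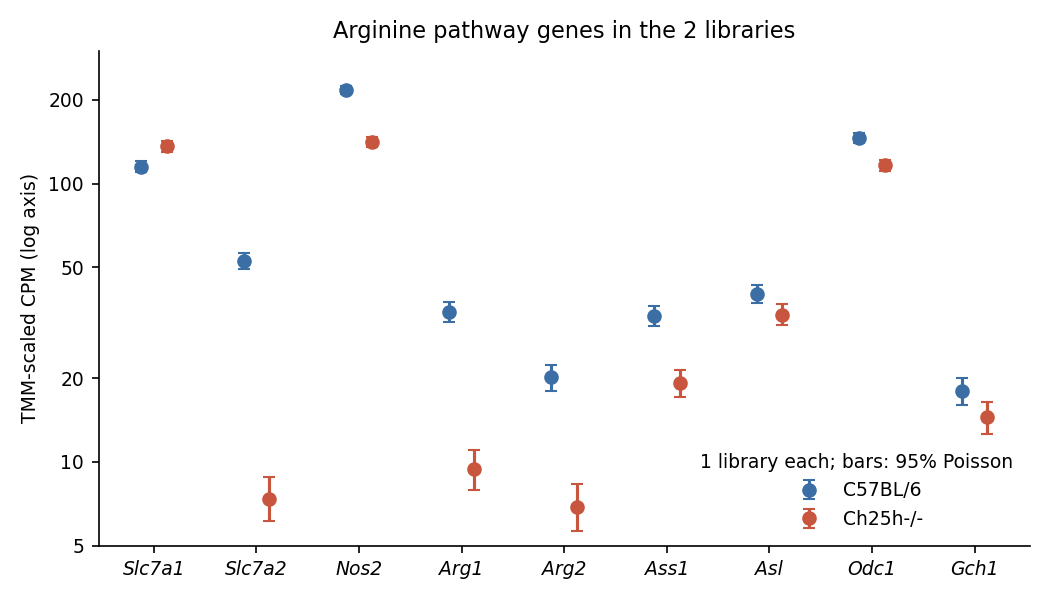
TMM-scaled CPM (log axis) of the 9 members, with 1 point per library (blue C57BL/6, red Ch25h-/-) and exact 95% Poisson intervals of the counts as bars. The widest gaps are those of Slc7a2 (52.7 against 7.39 CPM), Arg1 (34.5 against 9.41 CPM) and Arg2 (20.1 against 6.88 CPM). The points of the 2 libraries lie closest together for Slc7a1, Asl, Gch1 and Odc1.

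The transporter genes came apart. Slc7a2 (ENSMUSG00000031596, GRCm38 chromosome 8, 40862396 to 40922308, plus strand) encodes CAT2, a cationic amino acid transporter that activated macrophages induce. Its counts were 901 in C57BL/6 and 117 in Ch25h-/-, or 52.7 and 7.39 CPM. The log2 ratio was -2.83 (95% interval -3.12 to -2.55), a level 7.13-fold lower in the Ch25h-/- library (5.88 to 8.72). Counted from the lowest ratio, it ranked 40 of 11972 measured genes.

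CAT2 exists in forms that differ in their affinity for arginine, through a choice between alternative exons. The gene counts add up all forms, so the ratio does not say which form was lower. GENCODE M21 lists 4 full coding transcripts of Slc7a2 with 11 coding exons. The sixth is one of 2 alternatives, each in 2 transcripts, called A and B here. Both are shown 5′ to 3′ because they mark what the counts cannot separate, with capitals at the bases that differ in a global alignment. Exon A lies at chr8:40908056-40908195 and exon B at chr8:40908398-40908534 (GRCm38, plus strand).
Slc7a2 exon A: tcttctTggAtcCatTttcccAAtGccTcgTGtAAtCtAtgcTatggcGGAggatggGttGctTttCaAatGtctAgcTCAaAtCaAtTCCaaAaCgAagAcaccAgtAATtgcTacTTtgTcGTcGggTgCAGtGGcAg
Slc7a2 exon B: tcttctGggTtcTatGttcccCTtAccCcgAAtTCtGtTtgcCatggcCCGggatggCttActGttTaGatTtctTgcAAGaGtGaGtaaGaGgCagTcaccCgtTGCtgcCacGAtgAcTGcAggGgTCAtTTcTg
Exon A has 140 bases and exon B 137, and 84 of the 140 aligned columns (60.0%) are identical. A read inside this exon could tell the forms apart, but the deposited counts are per gene. An annotated noncoding gene on the opposite strand, Gm26584, shares 635 exonic bases with Slc7a2 and had 0 counts in both libraries.

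Slc7a1 (ENSMUSG00000041313, chromosome 5, 148327410 to 148399904, minus strand) encodes CAT1, the widely expressed cationic amino acid transporter. Its counts were 1965 in C57BL/6 and 2153 in Ch25h-/-, or 115 and 136 CPM. The log2 ratio of 0.24 (0.15 to 0.33) was above 0 beyond counting error but far from the 2-fold rule. It was the only member with a ratio above 0 under TMM scaling.

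Because both transporters were counted in the same libraries, their balance does not depend on scaling. Per length, as TPM (counts per exonic length, scaled to a common total), Slc7a2 stood at 0.579 of the Slc7a1 level in the C57BL/6 library and at 0.0686 of it in the Ch25h-/- library. The ratio between them was thus 0.119 of its C57BL/6 value in the Ch25h-/- library (exact 95% interval 0.0960 to 0.145, counting error only). As a share of the reads of both genes, Slc7a2 took 31.4% (exact binomial interval 29.7 to 33.2%) in the C57BL/6 library and 5.15% (4.28 to 6.15%) in the Ch25h-/- library.

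The other transporter genes that can carry arginine stayed inside the 2-fold rule. They were Slc7a6, Slc7a7 and their shared heavy chain gene Slc3a2, together with Slc7a3, which encodes CAT3. Slc3a2, the most abundant of the import list, had 222 and 150 CPM (log2 ratio -0.57, interval -0.64 to -0.49). Slc7a7, which encodes y+LAT1, had 18.5 and 13.8 CPM (-0.42). Of the 4, none was called, and their log2 ratios ran from -0.57 to -0.063.

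Nos2 was the most abundant member in the C57BL/6 library and did not reach the 2-fold rule. Nos2 (ENSMUSG00000020826, chromosome 11, 78920787 to 78960254, plus strand) encodes inducible nitric oxide synthase. Its counts were 3714 in C57BL/6 and 2232 in Ch25h-/-, or 217 and 141 CPM. The log2 ratio was -0.62 (-0.70 to -0.55), a 1.54-fold lower level in the Ch25h-/- library (1.46 to 1.62). The interval lies between no difference and 2-fold. The other nitric oxide synthase genes were close to absent, with 1 count in each library for Nos1, and with 1 count in the C57BL/6 library and 0 in the Ch25h-/- library for Nos3.

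Gch1 (ENSMUSG00000037580, chromosome 14, 47153895 to 47189413, minus strand) encodes GTP cyclohydrolase 1, which starts tetrahydrobiopterin synthesis. Its counts were 307 in C57BL/6 and 229 in Ch25h-/-, or 17.9 and 14.5 CPM. Its log2 ratio was -0.31 (-0.57 to -0.06). Per length, Gch1 stood at 0.0583 of the Nos2 level in the C57BL/6 library and 0.0724 of it in the Ch25h-/- library, a change in that ratio of 1.24-fold (1.03 to 1.49).

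Of the 7 other nitric oxide synthesis and cofactor genes reported here, 3 were measured and 0 were called. Spr, sepiapterin reductase, had 7.25 and 4.36 CPM (-0.73, interval -1.18 to -0.30). Pts, which acts one step before it, had 20.8 and 22.3 CPM (0.10), and Qdpr, which regenerates the cofactor, had 17.4 and 18.0 CPM (0.047), both with intervals that include 0.

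Both arginase genes were called lower under TMM scaling. Re-centred on the conventional dendritic cell markers, neither was called, with Arg1 at -0.046 and Arg2 at 0.28. Arg1 (ENSMUSG00000019987, chromosome 10, 24915221 to 24927484, minus strand) encodes the cytosolic enzyme. Its counts were 591 in C57BL/6 and 149 in Ch25h-/-, or 34.5 and 9.41 CPM. The log2 ratio was -1.88 (-2.15 to -1.62), 3.67-fold lower in the Ch25h-/- library (3.06 to 4.43).

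Arg2 (ENSMUSG00000021125, chromosome 12, 79130777 to 79156301, plus strand) encodes the mitochondrial enzyme. Its counts were 344 in C57BL/6 and 109 in Ch25h-/-, or 20.1 and 6.88 CPM. The log2 ratio was -1.55 (-1.87 to -1.23), 2.92-fold lower in the Ch25h-/- library (2.35 to 3.66). Of its 1428 exonic bases, 285 are shared with Vti1b on the opposite strand, which had 590 and 602 counts. A further gene on the opposite strand, the antisense gene Gm48780, shares 116 exonic bases with Arg2 and is not among the counted genes. The strand setting of the counting is not given in the sources used here, so reads in the shared bases cannot be assigned.

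The arginase forms were level with each other within counting error. That error does not cover reads in the Arg2 bases shared with Vti1b or Gm48780. Per length, Arg1 and Arg2 stood at 59.9 and 54.4 TPM in the C57BL/6 library, with overlapping counting intervals, and at 15.8 and 18.1 TPM in the Ch25h-/- library, again overlapping. The Arg2 to Arg1 ratio differed 1.26-fold between libraries, with an interval of 0.939 to 1.68 that includes 1. Arg2 made up 36.8% (33.7 to 40.0%) of arginase reads in the C57BL/6 library and 42.2% (36.1 to 48.5%) in the Ch25h-/- library.

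The balance of arginase against nitric oxide synthase transcripts therefore shifted between the libraries. The Nos2 level per length was 3.17 times that of Arg1 in the C57BL/6 library and 7.56 times in the Ch25h-/- library. The Arg1 to Nos2 ratio in the Ch25h-/- library was 0.420 of its C57BL/6 value (exact interval 0.346 to 0.507). For Arg2 to Nos2 it was 0.527 (0.418 to 0.660). Against Arg1 and Arg2 summed, Nos2 stood at 1.66 times their TPM in the C57BL/6 library and 3.53 times in the Ch25h-/- library. These ratios hold under every library scaling, since both genes share a library, but they do not show that the transcripts came from the same cells.

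**Figure D2:**
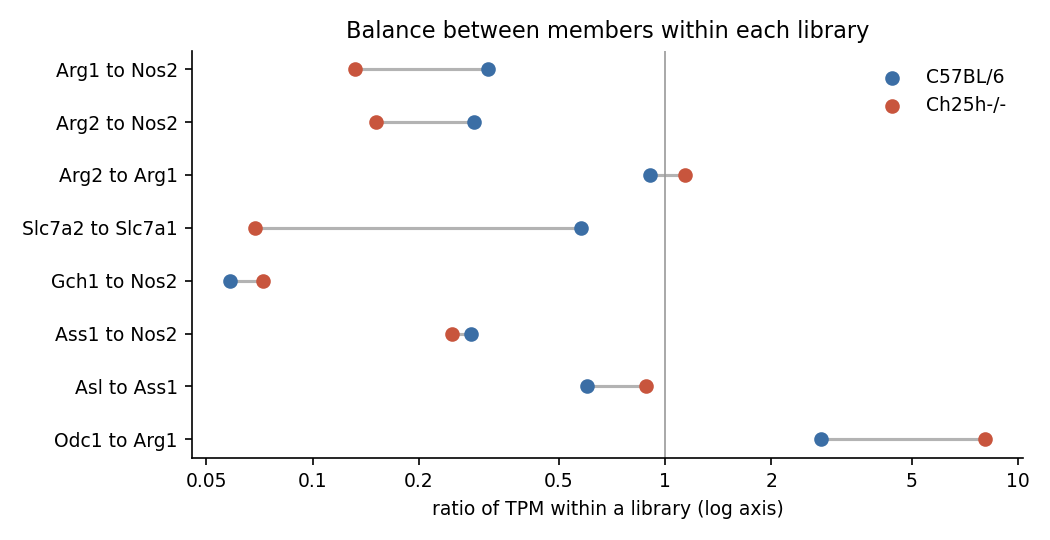
Ratio of TPM between 2 members within each library (log axis), 1 point per library (blue C57BL/6, red Ch25h-/-) for 8 pairs, with no error drawn. The Slc7a2 to Slc7a1 ratio moves furthest, from 0.579 to 0.0686, and the Ass1 to Nos2 ratio moves least, from 0.281 to 0.249.

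The recycling genes differed in size. Ass1 (ENSMUSG00000076441, chromosome 2, 31470207 to 31520672, plus strand) encodes argininosuccinate synthase, which joins citrulline to aspartate. Its counts were 572 in C57BL/6 and 304 in Ch25h-/-, or 33.4 and 19.2 CPM. Its log2 ratio was -0.80, with an interval of -1.01 to -0.60 that just reaches 2-fold. Relative to Nos2, Ass1 did not differ beyond counting error, with 0.884 of the C57BL/6 ratio in the Ch25h-/- library (0.759 to 1.03).

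Asl (ENSMUSG00000025533, chromosome 5, 130011258 to 130029247, minus strand) encodes argininosuccinate lyase, which releases arginine. Its counts were 688 in C57BL/6 and 536 in Ch25h-/-, or 40.2 and 33.8 CPM. The log2 ratio was -0.25 (-0.41 to -0.08), and it became 0.045 when ratios were re-centred on the general myeloid genes. The Asl to Ass1 ratio was 1.47-fold larger in the Ch25h-/- library (1.22 to 1.76). The liver urea cycle genes Otc, Cps1 and Nags had 0 counts in both libraries. The mitochondrial ornithine carrier gene Slc25a15 had 7.36 and 5.37 CPM (-0.46, interval -0.87 to -0.05).

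Odc1 (ENSMUSG00000011179, chromosome 12, 17544794 to 17551505, plus strand) encodes ornithine decarboxylase, which starts polyamine synthesis from the ornithine that arginase makes. Its counts were 2498 in C57BL/6 and 1845 in Ch25h-/-, or 146 and 116 CPM. The log2 ratio was -0.33 (-0.41 to -0.24), far smaller in size than that of Arg1. Per length, Odc1 stood at 2.77 times the Arg1 level in the C57BL/6 library and 8.10 times in the Ch25h-/- library, a 2.93-fold change in that ratio (2.42 to 3.56).

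Other polyamine genes stayed within the 2-fold rule. Of 15 listed beside Odc1, 13 were measured and 0 were called in either direction, with 6 ratios above 0, 7 below and a median of -0.0077. Sat1, the acetyltransferase that begins polyamine breakdown, was the most abundant at 229 and 167 CPM (-0.46). Amd1, which makes the aminopropyl donor, had 21.8 and 28.8 CPM (0.40). Atp13a2, a lysosomal polyamine exporter gene, had 65.6 and 49.4 CPM (-0.41). Among proline and creatine genes 8 of 10 were measured and 0 were called. The largest ratios in size there were Ckb (-0.82), Aldh18a1 (69.8 and 106 CPM, 0.60) and Oat, which turns ornithine toward proline (68.9 and 48.9 CPM, -0.50).

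**Figure D3:**
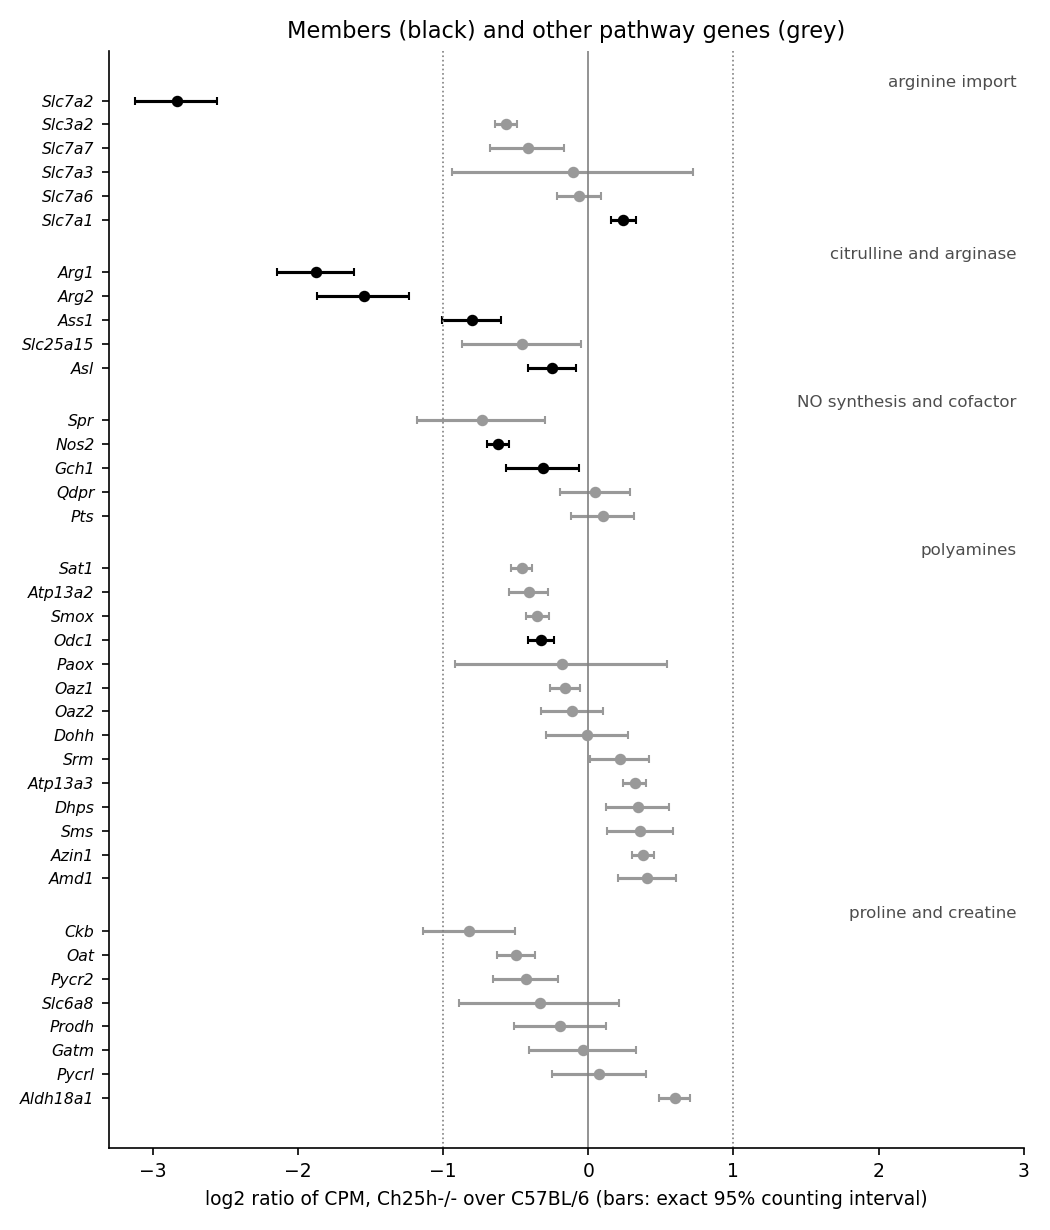
Log2 ratio of CPM, Ch25h-/- over C57BL/6, for members (black) and the other measured genes reported from 5 pathway lists (grey), with exact 95% counting intervals as bars and dotted lines at 2-fold. Only Slc7a2, Arg1 and Arg2 lie beyond the lower line, and no gene drawn reaches the upper one.

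The order of members by TPM differed between the libraries. In the C57BL/6 library it ran from Nos2 (190 TPM) through Odc1 (166), Arg1, Arg2, Ass1 (53.5), Slc7a1 (38.5), Asl (32.2) and Slc7a2 (22.3) to Gch1 (11.1), and the counting intervals overlapped between the neighbours Arg1 and Arg2 and between Arg2 and Ass1. In the Ch25h-/- library Odc1 (128 TPM) and Nos2 (120) came first with overlapping intervals. Slc7a1 (44.2) came next, above Ass1 (29.8) and Asl (26.3), which overlapped. Arg2 and Arg1 followed, then Gch1 (8.67), and Slc7a2 was last at 3.03 TPM.

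Genes upstream of these enzymes were mixed. Of 16 genes reported here that drive Nos2, from interferon-gamma to NF-kB, 2 were called lower and 0 higher, with a median log2 ratio of -0.20. The cytokine genes Il1b (427 and 162 CPM, -1.40) and Tnf (77.5 and 36.0 CPM, -1.11) were the called ones. Ifng had 1094 and 1540 CPM (0.49), and the receptor chain genes were at 0.37 for Ifngr1 and -0.92 for Ifngr2 (67.4 and 35.7 CPM). Irf1 was at -0.25, and Irf8, the most abundant, at 0.49.

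Of 13 genes that drive Arg1, 1 was called lower and 0 higher, and 12 had ratios under 0, with a median of -0.40. The 1 ratio above 0 was that of Il10 (24.3 and 34.9 CPM, 0.52, interval 0.34 to 0.71). Klf4, a transcription factor of alternative activation, had 94.7 and 29.0 CPM (-1.71, interval -1.86 to -1.55). The shared receptor chain gene Csf2rb had 625 and 317 CPM (-0.98, or -1.01 and called lower under total-count scaling) and the similar gene Csf2rb2 had 186 and 109 CPM (-0.77), and reads may be divided between these copies. Il4ra stood at -0.67 and Stat6 at -0.13. Stat3, the most abundant, stood at -0.36. Cebpb, which is on both lists of drivers, had 156 and 104 CPM (-0.59).

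Marker genes of other cells moved beside the members. Of the 12 conventional dendritic cell markers, 9 were measured and 8 were called lower, among them Fscn1 (746 and 171 CPM, -2.13), Batf3 (-2.14) and Esam (-2.66). The other measured marker, Itgax, which encodes CD11c, went the other way, at 272 and 336 CPM (0.30, interval 0.25 to 0.36). The 12 markers summed to 1814 and 742.4 CPM. Most of the C57BL/6 sum came from Fscn1 and Ccr7 (413 and 109 CPM, -1.93), whereas Itgax was the largest part in Ch25h-/-. The median log2 ratio of the 9 measured markers was -1.83. Arg1 lay at -0.046 from that median, Arg2 at 0.28 from it, Slc7a2 at -1.003 from it and Nos2 at 1.21 from it. Xcr1 had 0 counts in the C57BL/6 library and 6 in the Ch25h-/- library, Clec9a had 5 and 13, and Cd209a had 11 and 5, so that all 3 stayed under 1 CPM.

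Macrophage markers had a median of -0.75, with 4 of 12 called lower, among them Marco (-1.56), C1qa (-1.40) and Spic (-1.17), and Csf1r at -0.44. Their summed levels are given above. Against that median, Nos2 and Ass1 lay near, with differences of 0.12 and -0.053 on the log2 scale, and Slc7a2 lay at -2.09 from it. The Nos2 interval (-0.70 to -0.55) did not include the macrophage median, and single macrophage markers ran from -1.56 to -0.078. Nos2 also lay near the median of the B cell markers, -0.68. Eosinophil markers were low in both libraries, with a sum of 31.3 and 9.78 CPM. Of the 7, 4 were called lower, including Epx (104 against 7 counts) and Prg2 (165 against 12 counts), while Ccr3 stood at 0.18 and Siglecf at -0.081.

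Ly6C-high monocyte markers summed to 2177 and 3098 CPM (median 0.50, 2 of 8 called higher, Ccr2 at 1.19), and Ly6C-low monocyte markers to 1953 and 2232 CPM (median -0.36, 1 of 8 called lower, Fcgr4 at -1.13). In the first of these lists 1 marker had a ratio under 0, Fn1 (218 and 145 CPM, -0.59). In the second 2 markers had ratios above 0, Cx3cr1 (0.62) and the most abundant one, Itgal (1341 and 1784 CPM, 0.41). Neutrophil markers summed to 1242 and 2117 CPM (median 0.87, 5 of 12 called higher), with 2 ratios under 0, Mpo (-0.41) and Csf3r (-0.097). The largest ratio of that list was that of Ly6g, which encodes the Ly6G of the sorting gate (8 against 41 counts, 2.47, interval 1.36 to 3.77). Whether Ly6G+ cells entered the 2 sorts unequally was not tested. NK markers had a median of 0.85, with 4 of 10 called higher. B cell markers summed to 1399 and 862.3 CPM (median -0.68, 1 of 8 called lower). Among 8 genes of T cells, Cd28 was called higher (1.45) and Il7r lower (-1.03), and the median was 0.25. Endothelial and stromal markers had a median of 0.21, with 6 of 8 measured and Stab2 called lower (38 against 13 counts, -1.44). The part of these cell types in the ratios of the 9 members was not tested.

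**Figure D4:**
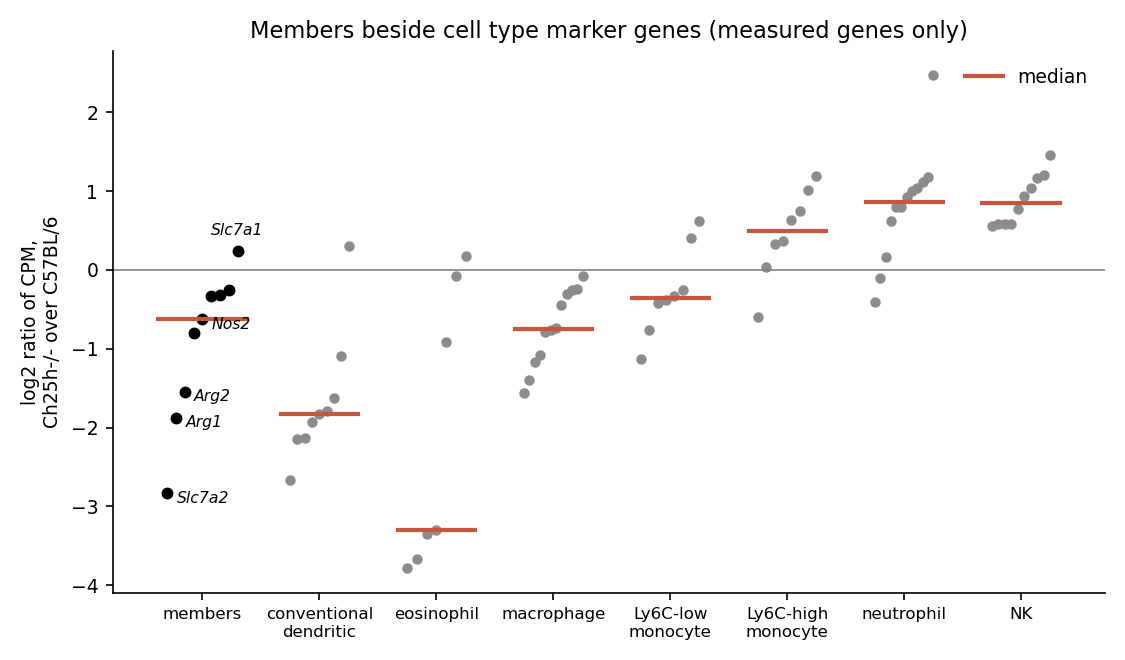
Log2 ratio of CPM, Ch25h-/- over C57BL/6, of the 9 members (black) and of measured marker genes of 7 cell types (grey), 1 point per gene, with red bars at the medians. Slc7a2 (-2.83) lies under the dendritic cell median of -1.83, Arg1 (-1.88) and Arg2 (-1.55) lie near it, and Nos2 (-0.62) lies near the macrophage median of -0.75. B cell markers, whose median of -0.68 is also near Nos2, are not drawn.

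Outside all lists, the measured genes nearest in log2 CPM over the 2 libraries were Mylk, Slamf1 and Adam23 for Slc7a2 (distances 0.45, 0.48 and 0.53). For Arg1 they were Tmtc2, Col27a1 and Cacna1d (0.060, 0.085 and 0.15), and for Nos2 they were Ntng2, Stat5a and Nrros (0.035, 0.073 and 0.083). With only 2 libraries, likeness means no more than a similar level in each. Slc7a2 had the sparsest surroundings of the 3, since its nearest gene, Mylk, was at 61.4 and 9.66 CPM.

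RefSeq promoter windows (GRCm38.p6, 250 bases before to 50 after the start) matched 4 members: Slc7a1, Ass1, Odc1 and Gch1, none of them called. They were searched on both strands for the AP-1 motif, spelled TGANTCA, and for the E-box, spelled CACGTG. The part of a cyclic AMP response element spelled TGACG, called the core here, and the kappaB motif were searched too. For each gene 1 window of 30 bases is shown 5′ to 3′ on the gene's strand, with the motif in capitals, as the stretch of these uncalled genes that matches a factor of the inflammatory or growth response. Where a gene had several matches, the one shown is of the motif that fewer of all promoters hold. The matches not shown are all of the cyclic AMP core, at -184 and 15 in Slc7a1 and at -88 in Gch1, and a second promoter window of Slc7a1 held none of the motifs.
Slc7a1, AP-1 at -123: gccatcagctcTGACTCAagctcagttgcg
Ass1, E-box at -36: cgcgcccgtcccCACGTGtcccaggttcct
Odc1, cyclic AMP core at -79: gccccgccccacTGACGcgcccggcccgcg
Gch1, kappaB at -10: gaggcgcggcGGGGCTCCCCagccggcgac
The windows lie at chr5:148400009-148400038 (minus strand), chr2:31470222-31470251 (plus), chr12:17544782-17544811 (plus) and chr14:47189404-47189433 (minus). Of all 32851 promoter windows, 7.81% held the AP-1 motif, 7.15% the E-box, 20.8% the cyclic AMP core and 8.46% the kappaB motif, so each is common. No searched motif overlapped another in the sequences shown.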

How the data were processed

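Per the labels' protocols, TRIzol was used for RNA and KAPA RNA HyperPrep for libraries. Alignment (GSNAP), counting (featureCounts, Subread 1.5.2), quality control (FastQC 0.11.9) and edgeR 3.26.8 are named, with the build GRCm38 (mm10), in the submitters' processing notes. The authors deposited raw counts per gene, which were used unchanged. Strand setting and the handling of reads that match several places are not given in the sources used here.

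CPM used TMM factors (1.01 and 0.991) from edgeR 4.0.16 in R 4.3.3. TPM used summed exon lengths of GENCODE M21 (GRCm38), which holds 30126 of the 30538 gene IDs. Intervals of ratios are Clopper-Pearson intervals, and those of within-library ratios are exact conditional odds ratio intervals (scipy 1.17.1). They hold counting error only, and reads counted without molecular identifiers may repeat a molecule. A single count of 0 was set to 3 counts where the other library was above that. No p-value was computed with 1 library per genotype. Exons were aligned with Biopython 1.88, and the calculations were tested on simulated data.

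Members and lists were chosen with earlier results of these data known. Named genes are the 9 members, Ch25h, the 3 largest ratios in size and the most abundant gene of each list, and the 3 nearest genes of Slc7a2, Nos2 and Arg1. Further list genes, named for context, were chosen after their values were seen. Some genes of 2 pathway lists are not reported here and were left out of the list counts and medians. Castor1 and Adgre1 were matched by ID. Alternatives were total counts, upper quartile factors and DESeq2 1.42.0 size factors, filters at 5 CPM and at 1 count, a prior count of 2, an interval wholly beyond 2-fold, and re-centring on 12 general myeloid genes or on conventional dendritic cell markers.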

Additional observations from a re-analysis of the deposited data

How the results depend on the processing

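No paired analysis was possible because each genotype has 1 library, and no library could be left out. Across the 7 alternatives other than re-centring, all 63 values of the 9 members stayed within their counting intervals, moved by at most 0.026 and kept their calls. The filters and the interval rule leave a ratio unchanged by construction, and could change only whether a member was measured or called. Each change of scaling shifts every gene by the same amount. The 63 values are therefore not independent checks. Against 248 genes higher and 691 lower, the filter at 5 CPM gave 120 and 347, and an interval wholly beyond 2-fold gave 67 and 318. Testing all genes with any count gave 435 and 1031. It took the median of the citrulline and arginase list from -0.80 to -1.05, with Slc25a2 (16 and 6 counts) added. The median of nitric oxide synthesis went from -0.31 to 0.047 through 2 genes near the floor, Nos1 (1 and 1 count) and Gchfr (1 and 3 counts).

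Re-centring on general myeloid genes shifts every ratio by 0.29, and on conventional dendritic cell markers by 1.83, by construction. The first gave 631 genes higher and 428 lower, Slc7a1 0.54, Slc7a2 -2.54, Nos2 -0.33, Arg1 -1.58, Ass1 -0.51, Asl 0.045, Odc1 -0.032 and Gch1 -0.018, with the same 3 members called lower. List medians became 0.033 for import, -0.51 for citrulline and arginase, -0.018 for nitric oxide synthesis, 0.11 for nitric oxide response, 0.091 for Nos2 drivers, -0.11 for Arg1 drivers and 0.024 for amino acid shortage. The second gave 11053 genes higher and 31 lower. Slc7a2 stayed called lower at -1.003, Arg1 was no longer called (-0.046) and Arg2 turned to 0.28. Slc7a1 (2.07), Nos2 (1.21), Ass1 (1.03), Asl (1.58), Odc1 (1.505) and Gch1 (1.52) were called higher. The same list medians, in that order, became 1.57, 1.03, 1.52, 1.64, 1.63, 1.43 and 1.56, with polyamines at 1.77 and proline and creatine at 1.57. Counts of 109 to 344 for Arg2 limit its ratio most among the called members.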

Other observations

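Genes that handle nitric oxide or methylated arginine were mostly level, with 1 exception. Of 9 listed, 5 were measured, 1 was called lower and 0 higher, with a median log2 ratio of -0.19. Nostrin, whose product binds endothelial nitric oxide synthase and directs its traffic, fell from 416 counts to 72, or from 24.3 to 4.54 CPM (log2 ratio -2.42, interval -2.80 to -2.06). The endothelial synthase gene Nos3 itself had 1 and 0 counts. Nosip had 52.7 and 45.6 CPM (-0.21) and Cyb5r3 55.6 and 48.8 CPM (-0.19). The nitric oxide receptor genes Gucy1a3 and Gucy1b3 had 0 counts in the C57BL/6 library, and 1 and 0 counts in the Ch25h-/- library.

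Genes of the response to amino acid shortage were also mostly within 2-fold, with 13 of 14 measured, 1 called lower, 0 called higher and a median of -0.27. The cystine transporter gene Slc7a11 had 73.7 and 30.4 CPM (-1.28, interval -1.43 to -1.13). Asns, asparagine synthetase, had 5.67 and 8.21 CPM (0.53), Trib3 had 4.62 and 2.65 CPM (-0.80) and Atf4 stood at -0.27. Slc38a2, the most abundant, had 492 and 508 CPM (0.046), and the arginine sensor gene Castor1 stood at -0.24.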
